A study of Mus musculus with 2 samples.

Results

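Mouse erythroleukemia (MEL) cells that had been differentiated with dimethyl sulfoxide (DMSO) held 129 long non-coding RNA genes with at least 100 estimated reads in both libraries. They are 2.27% of the 5690 genes that GENCODE M21 places in 6 long non-coding RNA classes and that the deposited tables list. The genes were chosen by those counts, so their levels are given as a description, with no test. MEL is an established line of virus-transformed mouse red cell precursors that make hemoglobin once given DMSO. Cells kept in 2% DMSO for 5 days gave polyadenylated RNA for 2 libraries, which were read from a single end and carry a labelled size range above 175. They are numbered as biological replicates 1 and 2, but share 1 cell sample identifier, so the spread between them may be technical. No untreated group was analysed here, so no value below is a response to DMSO.

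Long non-coding RNAs are transcripts with little or no coding capacity that are otherwise made much like messenger RNAs. Some act in the nucleus as scaffolds, some are mainly hosts whose introns release small nucleolar RNAs (snoRNAs, guides for the modification of ribosomal RNA) or microRNAs, and some arise beside or opposite a coding gene and act on it. In red cell precursors such RNAs have been studied as regulators of maturation genes, and many more are transcribed with no known role.

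Replicate 1 held 26149725 estimated reads and replicate 2 held 14149299, so 100 reads stood for 3.82 and 7.07 CPM (counts scaled to library size). A gene at 0 reads may lie as high as 0.115 CPM in replicate 1 and 0.212 CPM in replicate 2, the limit that a count of 0 allows. All 10 listed erythroid markers had at least 85.6 TPM on average (the deposited level per transcript length), and their summed TPM was 28225 in replicate 1 and 76776 in replicate 2. Of 9 markers of other cells, 2 reached 1 TPM in both libraries, Pf4 (13.7 and 20.1 TPM) and Ptprc (9.88 and 4.95 TPM). Alb and Cdh5 were at 0, and the list summed to 27.0 and 28.9 TPM, most of it from Pf4 and Ptprc. The labels and file headers do not state whether the counting used strand. In some opposite-strand pairs the estimated reads were fractions in each gene but whole when added. A630072M18Rik had 447.35 reads in replicate 1 and 465.68 in replicate 2, and Rsbn1l opposite it had 5221.65 and 1269.32. Reads of such pairs were thus split between strands by estimation, and the strand of a read from shared exon bases is not known. Other pairs that share exon bases, such as Snhg14 (1918 and 418 reads) and Ube3a (6683 and 1097), had whole numbers in each gene.

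The 129 genes fell into 54 of class lincRNA, 36 processed transcripts, 33 antisense genes, 4 bidirectional-promoter genes and 2 sense-intronic genes. None of the 20 sense-overlapping genes passed. By position, 9 genes held snoRNA or scaRNA (Cajal body RNA) genes on their own strand, 59 others overlapped a protein-coding gene on the opposite strand, and 61 did neither. A second annotation, RefSeq, did not always share the class. It had a record for 88 of the genes, of which 70 were long non-coding RNAs, 13 protein-coding genes, 3 transcribed pseudogenes and 2 pseudogenes. The remaining 41 had no matching record. The 13 that RefSeq takes as coding include Cct6a, a chaperonin subunit, 1810058I24Rik and Tmem134. For these 13 the 2 annotations give different classes, and the values below do not settle which holds.

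The snoRNAs inside these hosts come in 2 families, which are shown first because they are what most host genes are known for. C/D box snoRNAs guide methylation of ribosomal RNA, and H/ACA box snoRNAs guide pseudouridine formation. The sequences below are RNA-sense DNA letters from GENCODE M21 on GRCm38, 5′ to 3′. Capitals mark TGATGA within the first 25 bases and CTGA within the last 15 (the usual C and D boxes), or, for Snora15, ACA within the last 8. The first 3 lie in Gas5 (chr1:161036057-161036139, chr1:161037601-161037681 and chr1:161038082-161038158, plus strand), the next 2 in 2410006H16Rik (chr11:62603079-62603150 and chr11:62603450-62603521, plus strand). Then follow 1 each in Snhg6 (chr1:9942463-9942549, minus strand), Zfas1 (chr2:167065276-167065365, plus strand) and Cct6a (chr5:129794546-129794676, plus strand).
Gm22357: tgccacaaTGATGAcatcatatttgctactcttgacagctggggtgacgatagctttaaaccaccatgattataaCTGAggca
Snord80: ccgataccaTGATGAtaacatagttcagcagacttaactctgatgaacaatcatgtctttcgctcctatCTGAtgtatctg
Snord47: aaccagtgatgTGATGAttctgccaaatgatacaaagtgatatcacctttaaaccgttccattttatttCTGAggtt
Snord49b: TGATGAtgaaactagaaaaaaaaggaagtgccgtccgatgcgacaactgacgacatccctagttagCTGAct
Snord49a: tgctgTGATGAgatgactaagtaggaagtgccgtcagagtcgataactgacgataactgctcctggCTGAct
Snord87: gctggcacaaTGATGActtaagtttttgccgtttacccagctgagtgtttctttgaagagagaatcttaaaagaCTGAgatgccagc
Snord12: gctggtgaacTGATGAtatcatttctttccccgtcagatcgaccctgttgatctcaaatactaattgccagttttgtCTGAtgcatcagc
Snora15: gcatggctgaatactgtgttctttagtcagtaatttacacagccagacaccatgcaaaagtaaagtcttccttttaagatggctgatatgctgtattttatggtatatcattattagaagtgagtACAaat

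The 9 hosts held 232 snoRNA or scaRNA entries of M21, 208 of them in Snhg14, where 189 carried both C and D letters. Of the 24 entries in the other 8 hosts, 15 carried both, and 7 of the 9 without them carried ACA near the end. Among all 1558 snoRNA and scaRNA genes of M21, 19.96% carried both C and D letters in these windows and 47.6% had ACA near the end. A match describes the letters only. All entries in 2410006H16Rik, Snhg6 and Zfas1 carried both C and D letters, as did 8 of the 10 in Gas5, and no entry in Cct6a, Epb41l4aos, Snhg20 or Snhg17 did.

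As genes of their own the snoRNAs were almost unread in these libraries. The libraries hold polyadenylated RNA with a labelled size range above 175, and the entries printed above have 72 to 131 bases. The counts are therefore no measure of how much snoRNA the cells held. Of the 24 entries outside Snhg14, 23 were in the tables and 13 of those were at 0 reads in both libraries, as were all 208 in Snhg14. Gm22357 in Gas5, printed above, had 279 and 110 estimated reads (TPM is not compared, since so short a gene gets a high TPM from few reads), and it was the single entry with at least 10 in both. Snord80 had 26.6 and 7.77 reads, Snord47 12.9 and 0.60, and Snord49b 11 and 9. The Gas5 entries overlap exons of Gas5 transcripts, and reads shared with the host were split by estimation.

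The hosts themselves ranged from 5.66 to 394 TPM on average. Gas5 (growth arrest specific 5, a host whose spliced RNA is a classic target of nonsense-mediated decay) had 352 TPM in replicate 1 and 437 TPM in replicate 2, the highest of the hosts in both libraries. 2410006H16Rik, which holds Snord49a, Snord49b and Snord65, had 87.3 and 140.3 TPM. Cct6a, a coding gene in RefSeq, followed with 82.5 and 86.0 TPM. Its snoRNA gene Snora15 had 0 reads in both libraries and Gm23245 had 0 and 1. These 3 hosts stood in the same order in both libraries.

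Epb41l4aos, Snhg6 and Snhg14 stood lower in replicate 2. Epb41l4aos, an antisense-named host of 1 H/ACA-type entry, had 77.0 and 26.9 TPM. Snhg6, which holds Snord87, had 58.8 and 19.2 TPM. Snhg14, the imprinted transcript that in neurons runs through snoRNA clusters and across Ube3a, had 22.6 and 9.10 TPM. Of its 15 annotated transcripts, Snhg14-213, a 3708-base form of 3 exons, held 93.1% and 87.6% of its TPM.

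Zfas1, named for the antisense position to Znfx1, had 33.3 and 27.1 TPM, Snhg20 had 11.5 and 20.5 TPM, and Snhg17 had 5.39 and 5.93 TPM. The hosts had a median of 39.0 TPM, against 10.2 TPM for the other 120 long non-coding RNA genes. Their leading transcripts were shorter, with a median of 525 bases against 2039.5, and had 4 exons against 2. As a group they also carried more annotated transcripts, with a median of 5 against 2. In reads the groups were closer, with medians of 426 and 333. These are descriptions of genes chosen for their counts, and a minimum in reads asks more TPM of short genes.

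Genes for the proteins that package snoRNAs were read in these cells, and all 17 listed genes for snoRNP core and assembly factors had at least 1 TPM in both libraries, with a median of 35.9 TPM. Fbl, the methyltransferase of C/D particles, had 97.6 and 110.3 TPM, and Nop58, another C/D core protein, had 421 and 114 TPM. Dkc1, the pseudouridine synthase of H/ACA particles, had 68.9 and 49.7 TPM. All 14 listed genes of nonsense-mediated decay were also read, with a median of 29.7 TPM, among them the helicase Upf1 at 21.5 and 37.2 TPM.

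MicroRNA genes lay inside 11 of the 129 long non-coding RNA genes, on the same strand. They numbered 20, and 16 were in the sequence table. The mature microRNAs of the best known hosts are shown because their seeds (bases 2 to 8, in capitals), which pair with target messages, define families. Sequences are from RefSeq on GRCm38.p6, 5′ to 3′. The first 6 lie in Mir17hg on chromosome 14, the next 2 in Dleu2 on chromosome 14 and the last 3 in Mir99ahg on chromosome 16.
miR-17-5p: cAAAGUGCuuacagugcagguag
miR-20a-5p: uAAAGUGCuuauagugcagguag
miR-18a-5p: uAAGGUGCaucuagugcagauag
miR-19a-3p: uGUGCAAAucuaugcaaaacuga
miR-19b-3p: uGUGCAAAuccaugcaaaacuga
miR-92a-3p: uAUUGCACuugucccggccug
miR-15a-5p: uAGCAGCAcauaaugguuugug
miR-16-5p: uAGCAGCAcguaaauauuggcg
let-7c-5p: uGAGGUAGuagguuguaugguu
miR-99a-5p: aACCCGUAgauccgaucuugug
miR-125b-5p: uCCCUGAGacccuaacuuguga

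In the Mir17hg cluster, miR-17-5p and miR-20a-5p shared the seed AAAGUGC and the miR-19 pair shared GUGCAAA, while miR-18a-5p and miR-92a-3p each had their own. The Dleu2 microRNAs miR-15a-5p and miR-16-5p shared AGCAGCA, and the seeds in Mir99ahg differed from each other. The level of a host is not a measure of its mature microRNAs, and neither are hairpin reads in polyadenylated libraries with a labelled size range above 175. All hairpin genes of these 3 hosts were at 0 reads in both libraries, except Mirlet7c-1 with 2 and 0 reads.

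Mir17hg, host of the growth-promoting miR-17 to miR-92 cluster, had 15.95 TPM in replicate 1 and 3.89 TPM in replicate 2. Dleu2, a gene of a locus often deleted in human lymphocytic leukemia, had 21.4 and 8.38 TPM. Both were lower in replicate 2. Mir99ahg, a host known from human megakaryocytic leukemia, had 2.30 and 3.17 TPM. Ftx, a gene of the X-inactivation centre that holds Mir374b and Mir421, had 2.14 and 3.02 TPM, and C130071C03Rik, which holds Mir9-2, had 7.39 and 3.50 TPM. Gm17494 with Mir760 had 8.89 and 5.6 TPM. Mir17hg, Dleu2 and C130071C03Rik thus had more TPM in replicate 1, and Ftx and Mir99ahg more in replicate 2.

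The nuclear RNAs followed no common order. Malat1, a transcript of nuclear speckles, had 486 and 168 TPM and on its own held 24.1% and 9.78% of the reads of the 129 genes. Neat1, the scaffold of paraspeckles, had 49.97 and 119 TPM. Malat1 was higher in replicate 1 and Neat1 in replicate 2. Neat1 has a long form, which builds the paraspeckle and ends without a poly(A) tail, and shorter polyadenylated forms. The 20771-base Neat1-201 had 0.64 and 0.77 TPM (320 and 217 reads), whereas the 3004-base Neat1-202 had 14.8 and 14.75 TPM and the spliced 1030-base Neat1-203 had 34.5 and 103 TPM. The difference in Neat1 between the libraries thus lay in Neat1-203. All 6 listed genes for paraspeckle proteins were read, with a median of 424 TPM, among them Nono at 685 and 518 TPM and Sfpq at 910.5 and 326 TPM.

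Several other genes with known roles were read at moderate levels. 2900097C17Rik, which RefSeq calls Norad, a cytoplasmic RNA that binds Pumilio proteins, had 51.8 and 26.9 TPM. Tug1, a conserved RNA needed for male fertility in mice, had 36.3 and 31.4 TPM. Firre, an X-linked repeat-rich nuclear RNA, had 10.9 and 23.6 TPM. Kcnq1ot1, the imprinted RNA that silences neighbours on the paternal chromosome, had 1.27 and 0.60 TPM from 2588 and 689 reads, since its annotated transcript is 84395 bases long.

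Lockd lies 3579 bases downstream of Cdkn1b on chr6:134929092-134956798 and is known from mouse red cell precursors, where its promoter raises Cdkn1b, a cell cycle inhibitor. Lockd had 78.0 and 99.2 TPM. Cdkn1b had 177 and 104 TPM, above Lockd in both libraries and by less in replicate 2. AI427809, called Mexis in RefSeq and known for raising the cholesterol exporter Abca1 in macrophages, had 23.5 and 28.9 TPM, and Abca1, 101461 bases away, had 5.38 and 4.15 TPM. 1700020I14Rik, called Oip5os1 in RefSeq and known as Cyrano for its binding to the microRNA miR-7, had 65.8 and 29.5 TPM. AI427809 and 1700020I14Rik were named after their values had been seen.

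**Figure D1:**
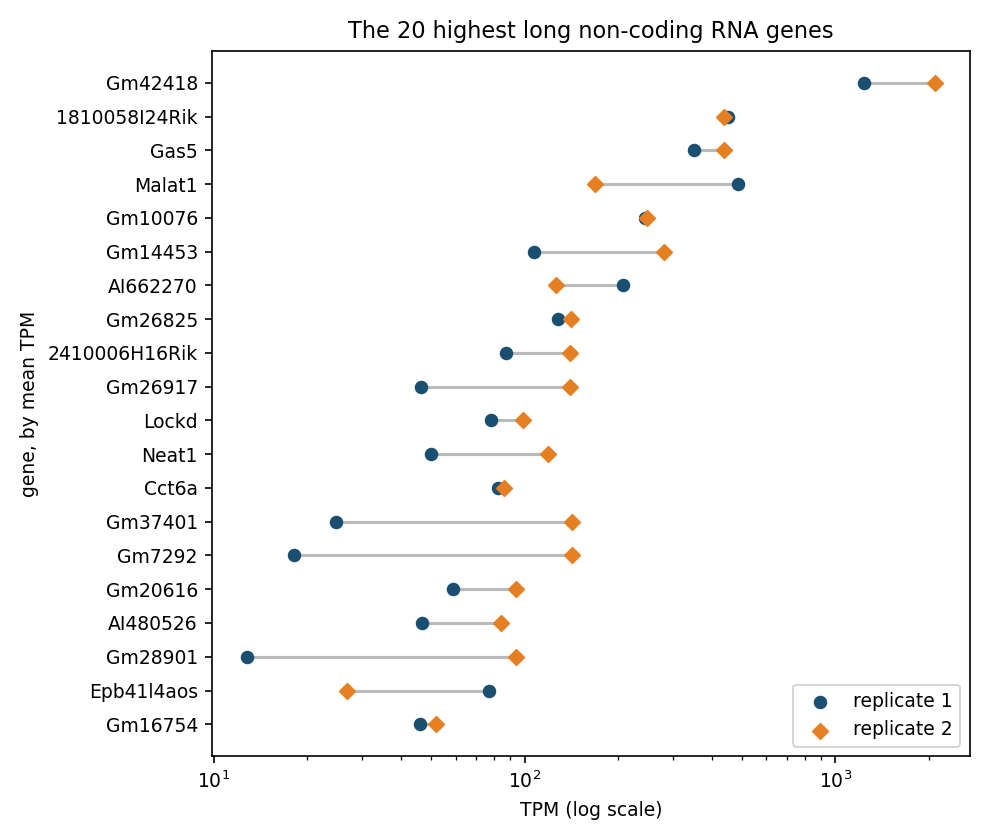
TPM of the 20 highest long non-coding RNA genes on a log axis, with replicate 1 as circles and replicate 2 as diamonds, joined by a line. Gm42418 led in both libraries (1232 and 2095 TPM), 1810058I24Rik lay within a narrow gap (452 and 439 TPM), and Gm7292 had the widest gap on this axis (18.1 and 142.6 TPM).

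The levels were very uneven. The 10 highest genes held 63.3% and 65.0% of the TPM of all 129, as the plot of the 20 highest shows. By mean TPM, 9 genes had at least 100, 60 had 10 to 100, 58 had 1 to 10 and 2 had under 1. Leading transcripts were shorter in the higher bands, with medians of 592 bases at 100 TPM or more, 974.5 at 10 to 100 and 2816 at 1 to 10. The minimum was set in reads, so a short gene needs a higher TPM to pass it. The 2 genes under 1 TPM were Kcnq1ot1 and Gm4117, whose leading transcript has 52401 bases. Processed transcripts had the highest median of the classes at 16.3 TPM, followed by lincRNA genes at 10.98, sense-intronic genes at 8.97, antisense genes at 8.72 and bidirectional-promoter genes at 4.37.

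Against protein-coding genes past the same minimum, the 129 genes were few, low and simple in structure. The minimum left 2.27% of long non-coding RNA genes and 39.6% of protein-coding genes (8500). Median levels were 10.5 TPM for the long non-coding RNA genes and 19.1 TPM for the protein-coding genes, and 126 of the 129 had at least 1 TPM in both libraries. Their leading transcripts had a median of 2015 bases and 2 exons, against 2394 bases and 8 exons. A leading transcript of 1 exon was found in 20.9% of the long non-coding RNA genes and in 1.49% of the protein-coding ones. Together the 129 genes held 0.863% of all estimated reads in replicate 1 (exact 95% interval 0.860% to 0.867%) and 0.910% in replicate 2 (0.905% to 0.915%), a mean of 0.887% ± 0.0331 (SD, n = 2). These intervals cover counting error only. Without the neighbours Gm42418 and Gm26917 the mean share was 0.578%, and the 70 genes that are long non-coding RNAs in RefSeq held 0.377%.

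**Figure D2:**
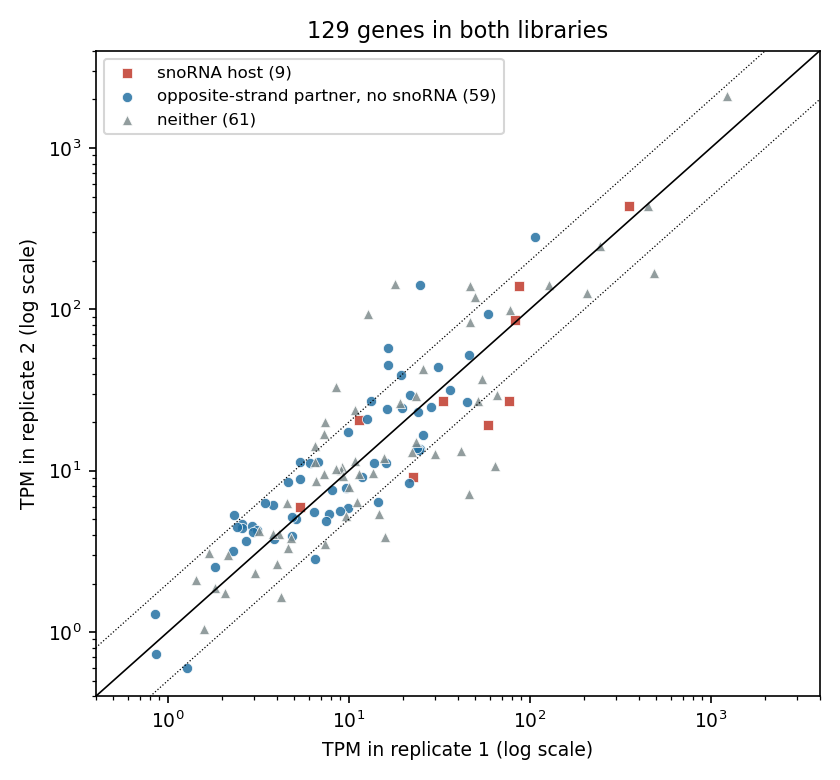
TPM of each of the 129 genes in replicate 1 (x axis) and replicate 2 (y axis), both on log axes, with snoRNA hosts as squares, genes with an opposite-strand coding partner as circles and the others as triangles. The solid line marks equal TPM and the dotted lines a 2-fold difference; the genes follow the solid line across the whole range, and 70 of them lie above it.

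Ranks were similar in the 2 libraries. Spearman's rho of TPM between them, as the plot of TPM in both libraries shows, was 0.863 over the 129 genes and 0.8504 over the 8500 protein-coding genes. It is given without a p, since all points share the same 2 libraries.

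Some of the highest genes have near-identical copies or a place in another class, which leaves their own level uncertain. Gm42418 had 1232 and 2095 TPM and held 23.6% and 39.8% of the reads of the 129 genes. RefSeq lists its locus, chr17:39846958-39848788, as the pseudogene Rn18s-rs5, a ribosomal RNA-related sequence, and Gm26917 beside it had 46.6 and 140.2 TPM. Gm10076 (244 and 247 TPM) matched the ribosomal protein gene Rpl41 at 99.5% identity, and Rpl41 had 7741 and 7747 TPM. Gm26825 (128 and 141 TPM) matched the heat shock gene Hspa8 at 99.6%, and Hspa8 had 339 and 816 TPM. In all, 5 of the 129 genes had such a copy elsewhere (at least 95% identity over 80% of the length).

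Gm28901 (12.8 and 94.1 TPM) matched Hnrnpf at 99.5%, and Hnrnpf had 171 and 118 TPM. Another copy at 99.5%, the pseudogene Gm12435, had 0.21 and 20.1 TPM. Gm28901 and Gm12435 were thus higher in replicate 2 and Hnrnpf was lower. Gm7292 had 18.1 and 142.6 TPM and matched 2900097C17Rik, the Norad gene named above, at 99.2%. Its reads changed transcript as well: Gm7292-201 (2527 bases) held 100% and 3.38% of its TPM, and Gm7292-202 (995 bases) held 0% and 96.6%. The estimates' own posterior SD was over 10% of the count in 7 of the 129 genes, and its median was 0.169% of the count in replicate 1 and 0.390% in replicate 2.

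The leading transcript held most of the TPM in many long non-coding RNA genes, in part because of the annotation. A single transcript was annotated for 56 of them, the leading transcript held at least 90% of TPM in 76, and it was the same in both libraries in 118. Its median share was 97.9%, against 76.8% in protein-coding genes, which have 4 transcripts in the median where the 129 have 2. The lowest leading shares were 30.5% in Snhg17, 34.9% in Ptprv, 35.2% in 5530601H04Rik, 36.6% in 5031425E22Rik, 37.3% in Zfas1 and 40.6% in 1810026B05Rik. A retained-intron form led in 4 of the 129 (3.10%), Zfas1 and Ptprv among them, and in 6.65% of protein-coding genes.

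Shares of single transcripts differed widely between the libraries in some genes. Gas5-224, a 12-exon form of 502 bases, held 32.4% of Gas5 TPM in replicate 1 and 68.7% in replicate 2, and the retained-intron form Gas5-207 held 21.01% and 0%. AI662270-203 (592 bases) held 31.6% and 74.6% of its gene, and AI662270-202 (1428 bases) held 68.4% and 25.4%. The shorter transcript of AI662270 was the higher one in replicate 2 and the longer one in replicate 1. Single-end reads separate overlapping transcripts poorly, and no replicate check of these shares exists.

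A protein-coding gene lay on the opposite strand of 64 of the 129 genes, with exon bases shared in 58. Where exon bases are shared, part of either level may be reads of the other gene. All but 1 of the 33 genes of class antisense were among them. Taking the highest partner of each, the long non-coding RNA gene had a median of 9.77 TPM and the partner 20.8 TPM. The partner was higher in 40 of 64 pairs, and the median log2 ratio of partner over long non-coding RNA gene was 0.71. A partner under 1 TPM was found in 8 pairs.

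The 10 genes with the most reads among these pairs showed every arrangement. Gas5 (352 and 437 TPM) stood far above Zbtb37 (2.89 and 2.33 TPM), a zinc finger gene whose start lies 427 bases from that of Gas5. Cct6a (82.5 and 86.0 TPM) stood above the serine synthesis enzyme Psph (2.50 and 1.98 TPM), which starts 451 bases away. 5830444B04Rik (45.3 and 26.5 TPM) stood above Cfap74, a cilia gene (1.88 and 3.84 TPM). In these 3 pairs the gene of the long non-coding RNA classes was higher in both libraries, though RefSeq takes Cct6a as coding.

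Tug1 (36.3 and 31.4 TPM) was higher in both libraries than Morc2a (23.9 and 16.3 TPM), a chromatin ATPase with a start 482 bases away. Dleu2 (21.4 and 8.38 TPM) was also higher than Trim13 (5.30 and 1.24 TPM), a ubiquitin ligase. Snhg14 (22.6 and 9.10 TPM) was lower than Ube3a (54.6 and 15.85 TPM), the imprinted ubiquitin ligase that it overlaps by 1803 exon bases. Both genes of the Snhg14 pair and both of the Dleu2 pair stood lower in replicate 2. Brip1os (13.7 and 11.2 TPM) was lower than the mediator subunit gene Med13 (23.7 and 14.1 TPM).

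Kcnq1ot1 (1.27 and 0.60 TPM) was lower than the potassium channel gene Kcnq1 (1.54 and 2.69 TPM), inside which it starts. The order of 2 pairs turned between the libraries. Gm14453 had 107 TPM in replicate 1 and 281 TPM in replicate 2, against 151 and 185.5 TPM for Rbm38, an RNA-binding protein gene active in red cells. Gm20616 had 58.9 and 94.0 TPM, against 63.4 and 39.5 TPM for the chromatin remodeller Smarca2. Gm14453 and Gm20616 were thus below their partners in replicate 1 and above them in replicate 2.

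For some pairs the exons coincide almost wholly, and reads of the 2 strands may then have been counted to either gene. Gm37401 (24.7 and 142.4 TPM) has 93.4% of its exon bases opposite Rhoa (126 and 109 TPM), and Gm17041 (16.6 and 44.9 TPM) has 100% opposite Cish, a cytokine signalling inhibitor (28.3 and 138.6 TPM). More than 50% of the exon bases lay opposite a partner in 11 pairs, and the median over the 54 pairs that share exon bases was 12.1%. The levels in a pair were loosely related (Spearman's rho 0.273 over 64 pairs, which share libraries and, in part, sequence). In 51 pairs with at least 100 reads in both genes, the ratio between the libraries had the same sign in 37. These were 31 of the 44 that share exon bases and 6 of the other 7. The same share was not computed for other gene pairs, so the count is no result about partners.

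Starts of 33 genes lay head to head with a coding gene within 1000 bases, at a median distance of 189 bases, 13 of them without overlap. The median level was 11.2 TPM for these long non-coding RNA genes and 15.3 TPM for their neighbours, and the neighbour was higher in 18 of 33. AV099323, 43 bases from the replication clamp gene Pcna, had 41.75 and 13.2 TPM, against 311 and 140.4 TPM for Pcna. Both genes were lower in replicate 2. On the same strand, 17 genes overlapped a coding gene and 9 shared exon bases with it. Among these 9, 1810026B05Rik, called Chaserr in RefSeq and known for lowering the chromatin remodeller Chd2 beside it, shared 2628 exon bases with Chd2. It had 46.2 and 7.19 TPM, and Chd2 had 66.3 and 41.1 TPM. At the other end, 24 of the 129 genes lay over 10000 bases from any coding gene.

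Between the libraries, the 129 genes differed about as much as other genes, with a median size of the log2 ratio of 0.61 against 0.60 over all genes. The log2 ratio of reads in replicate 2 over replicate 1, scaled by trimmed means (TMM), had a median of -0.18 over the long non-coding RNA genes, -0.03 over all 8894 genes past the minimum and -0.02 over protein-coding genes. At least 2-fold lower in replicate 2 were 24 of the 129 (18.6%), where 14.5% of all genes and 14.2% of protein-coding genes were. At least 2-fold higher were 10 (7.75%), where 9.95% of all genes and 9.87% of protein-coding genes were. These shares lie near those of other genes and are no result about long non-coding RNAs under this scaling. With 1 library against 1, no test was made, and in bulk RNA fewer cells of a type and less RNA per cell cannot be told apart.

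With the libraries scaled by total reads, 17 of the 129 were lower (13.2%), where 8.5% of all genes were, and 15 were higher (11.6%), where 18.5% of all genes were. That scaling moves the median of all genes from -0.03 to 0.25. Relative to all genes, the median of the 129 was -0.15 under either scaling, as it must be, since a scaling shifts all ratios alike. It was 0.12 with the trend of GC content, described below, taken out. TPM was higher in replicate 2 in 70 of the 129 genes, although the TMM ratio was positive in 56. Neither count was made for other genes, so neither is a result about long non-coding RNAs. The snoRNA hosts had a median ratio of -0.20, with 3 of 9 at least 2-fold lower (14.5% of all genes) and 0 higher (9.95% of all genes). So few genes say little about hosts as a group.

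**Figure D3:**
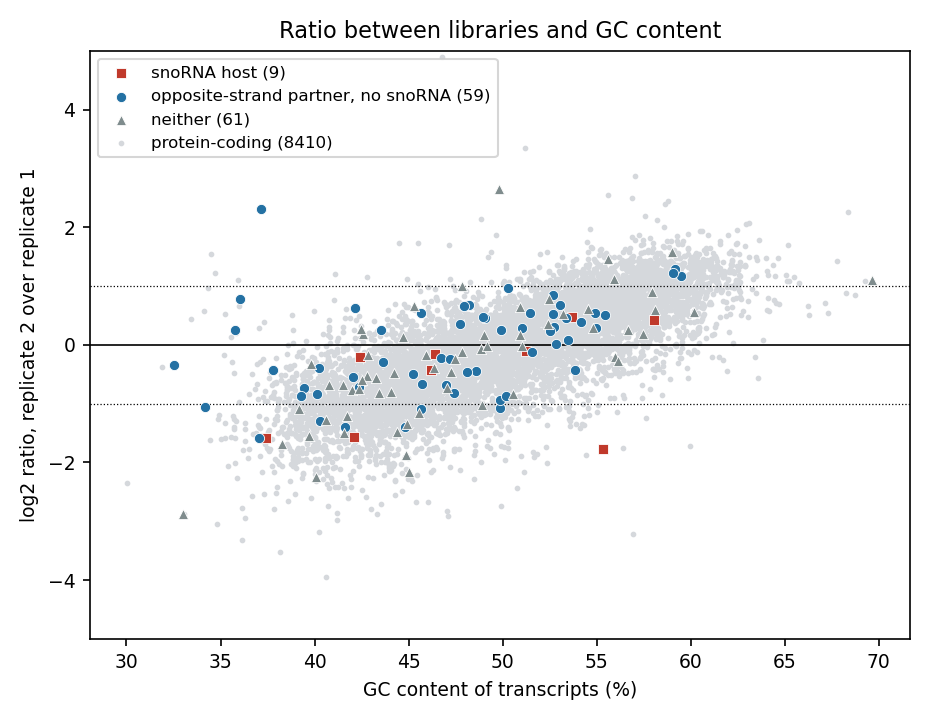
Log2 ratio of reads in replicate 2 over replicate 1 (y axis, TMM scaling) against the GC content of a gene's transcripts in percent (x axis), for the 129 long non-coding RNA genes by group and, as small grey points, 8410 protein-coding genes. Dotted lines mark a 2-fold difference; the ratio climbs with GC content in both kinds of gene, with medians of -0.87 below 40% GC and 0.46 above 50% GC for the long non-coding RNA genes.

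GC content moved with the ratio in the long non-coding RNA genes as it did in coding genes, as the plot of ratio against GC content shows. Spearman's rho was 0.604 over the 129 and 0.784 over 8410 protein-coding genes, whose points share the same 2 libraries. Below 40% GC, 15 long non-coding RNA genes had a median ratio of -0.87, against -1.21 in 334 protein-coding genes. From 40% to 50% GC, 69 had -0.47, against -0.57 in protein-coding genes. Above 50% GC, 45 had 0.46, against 0.51. Median GC was 47.4% in the long non-coding RNA genes and 50.3% in the protein-coding genes. With the trend of protein-coding genes taken out, the median of the 129 was 0.14, against 0.015 over all genes. At least 2-fold lower were then 5 of the 129 (3.88%), where 4.81% of all 8801 genes with a GC value were, and at least 2-fold higher were 12 (9.30%), where 2.57% of all genes were. The share of higher genes was thus above that of all genes after this step, and below it (7.75% against 9.95%) before. The 129 genes also had fewer reads, with a median of 349 against 782 over all genes, and the part of read number in this share was not tested.

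The genes with the lowest ratios were Gm17066, Mir17hg, 1810026B05Rik, AV099323, Epb41l4aos, D930016D06Rik, Snhg14 and Dleu2. Gm17066 had 64.3 TPM in replicate 1 and 10.7 TPM in replicate 2, a log2 ratio of -2.88. Its transcripts have 33.0% GC, and it shares 413 exon bases with Rbm26 on the same strand (48.2 and 24.7 TPM). Mir17hg had a ratio of -2.25, 1810026B05Rik -2.16 and AV099323 -1.87. Epb41l4aos had a ratio of -1.77 at 55.3% GC, and -2.35 with the GC trend taken out, which was then the lowest of all 129. After that step 1810026B05Rik had -1.48, Gm17066 -1.22, AV099323 -1.17 and Mir17hg -1.14, while D930016D06Rik (14.7 and 5.39 TPM), Snhg14 and Dleu2 lay within 2-fold.

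The highest ratios were those of Gm28901, Gm37401, Tmem134, Gm7292, Rab10os, Gm17041, Gm14453 and Ptprv. Gm28901 had a log2 ratio of 2.66 and Gm37401 one of 2.31, and both were larger with the GC trend taken out, at 2.75 and 3.64. Gm28901 is the gene with a copy in Hnrnpf, and Gm37401 the one opposite Rhoa. Tmem134 (8.47 and 32.95 TPM), a coding gene in RefSeq, had 1.58, and Gm7292 had 1.45. Rab10os (16.4 and 58.0 TPM, opposite the small GTPase gene Rab10) had 1.30, Gm17041 1.22, Gm14453 1.17 and Ptprv 1.12. The last 6 have 55.6% GC or more and lay within 2-fold once the GC trend was taken out.

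Genes at the edge of the minimum show what it separates. The 4 genes just inside were Gm36995 with 117 and 100.9 reads, Gm26767 with 454 and 101, 6530402F18Rik with 137 and 102, and A730017L22Rik with 263 and 104. Just outside were Pvt1, a neighbour of the Myc gene, with 198 and 99.1 reads, Gm15584 with 261 and 99, Gm16201 with 118 and 98.4, and Tctn2 with 191 and 98.2. In each of these the smaller count came from replicate 2, the shallower library. Of 110 genes that reached 100 reads in a single library, 94 did so in replicate 1. Of all 5690 genes, 3477 had 0 reads in both libraries.

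Of the listed long non-coding RNAs known from other work, 45 were in the 6 classes, 18 passed and 27 did not. Xist, the RNA of the inactive X chromosome, had 4 and 2 reads, and the imprinted H19 and Meg3 had 1 and 0 and 8 and 6 reads. Among snoRNA hosts below the minimum, Snhg3 had 246 and 39.3 reads, Snhg5 418 and 96, and Snhg12 140 and 63. Mir142hg, host of a blood cell microRNA, had 81 and 177 reads. Ttc39aos1, known as lincRNA-EPS for its support of red cell precursor survival, had 57 and 92 reads, or 4.01 and 13.6 TPM. Snhg3, Snhg5 and Snhg12 passed in replicate 1 but not in replicate 2, and Mir142hg passed in replicate 2 but not in replicate 1.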

How the data were processed

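For each library the authors deposited a gene table and a transcript table. Expected counts (read numbers estimated per gene, not always whole) were deposited unscaled, per the file headers. TPM was deposited as a level per transcript length, and the share of a gene's TPM held by each transcript as a percent, per the file headers. Posterior SDs of the count were deposited as a score per gene. The assembly was mm10 and the annotation GENCODE M4, per the labels and deposited file lists. Which aligner and program were used was not given in the sources used here.

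Symbols, classes and positions came from GENCODE M21 by Ensembl ID (42462 of 43346 genes matched). Rows with other identifiers held 0.0296% and 0.0465% of reads and stayed out. For ratios, expected counts were rounded, scaled by TMM (edgeR 4.0.16 in R 4.3.3; genes with at least 10 reads in both libraries) and given a prior count of 1. The GC trend was a lowess curve over protein-coding genes (span 0.3, 3 iterations, statsmodels 0.14.6), with GC weighted by TPM over M21 transcripts and known for all 129 genes. Pairs used a pseudocount of 0.1 TPM. Copies were sought with BLAST+ 2.17.0. An opposite-strand partner overlapped the gene's span by at least 1 base, and a host held the small RNA gene on its own strand. RefSeq records were matched by symbol, or by a synonym at the same locus (10 genes). Python 3.11.15 with pandas 2.3.3 and matplotlib 3.10.9 did the rest. The log2 ratio was tested on simulated counts and the overlap of positions on made-up intervals. The other steps were not tested in this way.

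The genes and lists were chosen with earlier results of these data known. Genes to name came from sets fixed by rule. These were all snoRNA hosts, the 20 highest by mean TPM, the 10 with an opposite-strand partner and most reads, and the 8 largest ratios each way. Further sets were 4 on either side of the minimum, the listed known RNAs, up to 10 microRNA hosts and the 6 lowest leading shares. Some genes of these sets, among them many of the listed known RNAs, are not named in the text. Other named genes were chosen after their values were seen. Of 62 listed known RNAs, 49 matched a symbol in the tables, and the others were not analysed here. The labels give 1 group of 2 libraries, so no comparison of conditions and no p-value was made.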

Additional observations from a re-analysis of the deposited data

How the results depend on the processing

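No paired analysis was possible because the labels give 1 group. A ratio between the libraries cannot be formed with either left out. Of 76 alternatives, 42 stayed within a tolerance (1.5 times for counts, the SD of the 2 libraries for levels and shares, 0.1 for log2 ratios and rho), 31 lay beyond it and 3 turned the sign. Part of this tally was fixed in advance. For the share of reads, either library alone must lie within the SD of the 2. For the leading share each library gave 100%, which left no tolerance, so any change lay beyond it. The restrictions to RefSeq long non-coding RNA records and to genes without copies were chosen after seeing the data.

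The median ratio of the 129 genes was 0.10 under total-read scaling and 0.14 with the GC trend removed, and that of the hosts 0.076 under total reads, all against negative main values; the median of all genes moves with the total-read scaling by construction, and the cause of the GC trend was not tested. Removing it left 5 genes at least 2-fold lower (3.88%, against 4.81% of all genes) and 12 higher (9.30%, against 2.57%).

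A minimum of 50 reads gave 231 genes, 15 hosts, 118 with a partner, a median of 5.97 TPM, a host ratio of -0.36 and 21 genes at least 2-fold higher. A minimum of 200 gave 63 genes, 5 hosts, 27 with a partner, 21.3 TPM and 13 genes at least 2-fold lower. A minimum of 500 gave 29 genes. The share of all genes past 2-fold was not computed at the minimums of 50 and 200. The 2-fold counts there are thus no result about long non-coding RNAs. Either library alone gave 145 to 223 genes, 10.7 to 10.9 TPM, a leading share of 100% and a partner ratio of 0.57 to 0.78. Posterior means gave 10.1 TPM and a leading share of 95.8%, and shares of reads 99.6%.

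RefSeq long non-coding RNAs alone were 70 genes with 0.377% of reads and 35 with a partner. They had 11.6 TPM, a leading share of 84.0%, a median ratio of -0.32 and a partner ratio of 1.15. Of the 70, 2 were at least 2-fold higher (2.86%, against 9.95% of all genes) and 16 at least 2-fold lower (22.9%, against 14.5%). These shares were not tested, and they were not computed for the 70 with the GC trend removed. The share of reads was 0.578% without Gm42418 and Gm26917, which hold much of it, and 0.841% without genes with copies. DESeq2 size factors and other prior counts moved no result beyond its limit. Other minimums and restrictions change which genes enter; the cause of the remaining moves was not tested. Depth limits the low end: 100 reads is a higher CPM in replicate 2.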

Other observations

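Some pairs outside the named ones had high partners, and were chosen after their values were seen. Gm17275 (16.0 and 11.2 TPM) lies opposite the histone variant gene H3f3a (623 and 633.5 TPM), and Gm26882 (6.41 and 5.53 TPM) has 97.5% of its exon bases opposite Morf4l1 (475 and 291 TPM). Hk1os (21.8 and 29.4 TPM) lies opposite the hexokinase gene Hk1 (223 and 231 TPM), which was the higher gene in both libraries.

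Gm26870 (19.4 and 39.1 TPM) lies opposite 9 coding genes of M21. With the GC trend taken out its log2 ratio was 2.21, the third highest of the 129 genes after Gm37401 and Gm28901.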
